A study of Mus musculus with 4 samples.

Results

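The genes described here were the 43 mouse protein-coding genes named as MAP kinases (Mapk) or as the kinases above them (Map2k, Map3k, Map4k), out of 21951 protein-coding genes in the GENCODE M21 annotation. The rule used the symbol alone, as Mapk, Map2k, Map3k or Map4k followed only by digits, which gave 5 Map4k, 18 Map3k, 7 Map2k and 13 Mapk genes. A gene was said to carry a peak where a called peak had its summit, the position of highest signal, in one of the gene's exons. By that rule the genes held 41 of the 15635 peaks of IP replicate 1 and 35 of the 14872 peaks of IP replicate 2.

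MAP kinase cascades relay signals from growth factor, cytokine and stress receptors through successive phosphorylations. A MAP4K or a small GTPase activates a MAP3K, the MAP3K phosphorylates a MAP2K, and the MAP2K phosphorylates the MAP kinase itself. The MAP kinases fall into the ERK, JNK and p38 branches, ERK5 and a few atypical members, and in blood they act downstream of cytokine receptors such as Kit and of inflammatory receptors. N6-methyladenosine (m6A) is a methylated base of mRNA that is set mainly in DRACH sequences (D stands for any base but C, R for a purine and H for any base but G), often near stop codons and in long exons, and YTHDF2 is a reader protein that targets m6A-bearing mRNAs for decay.

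The samples were Kit+ cells of the foetal liver of C57BL/6 mice, enriched on magnetic columns (MACS). In the study's methods they came from Ythdf2 CTL animals, which are Ythdf2 fl/fl without the deletion and whose floxed allele makes a GFP-YTHDF2 fusion, so all samples shared that allele and there was no Ythdf2-deficient, untreated or other comparison group. Methylated RNA immunoprecipitation with sequencing (meRIP-seq) gave 2 IP libraries, labelled as total RNA, and 2 input libraries, labelled as polyA RNA. The methods call the replicates biological, and the labels give no embryo age, sex or number of embryos. Only the peak lists of the IP libraries were analysed here, so expression in the inputs was not used, and a gene without a peak may be unmethylated or may have too little RNA for a peak to be called. In bulk libraries such as these, few cells with the transcript and little transcript per cell cannot be told apart.

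The cell label was checked against markers. Of 10 blood stem and progenitor genes, 7 carried a peak in both replicates, while others, Kit and Myb among them, had none. Of 5 erythroid genes 2 carried one in both, and of 5 myeloid genes 3 did. Of 5 hepatocyte genes, Apoa1 (4.85- and 5.24-fold) and Hnf4a (6.59- and 8.44-fold) carried a peak in both replicates, Afp in replicate 1 only, on 7 IP reads, and Alb and Ttr in neither. Of 4 endothelial genes only Kdr carried one, at 8.01- and 9.54-fold. Beside the 30.9% of all protein-coding genes with a peak in both replicates, the shares of the erythroid, hepatocyte and endothelial lists were near the background, and these short lists do not settle the cell type. Peaks report methylated transcripts and not cell numbers, and the part of liver and endothelial cells in the peaks below was not tested.

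The sequences below show candidate methylation sites near summits of recurrent peaks in each tier, the nearest GGACH (GGAC followed by A, C or T) or, with none within 50 nt, the nearest DRACH. Each is 21 nt of the GRCm38 reference on the strand of the gene, 5′ to 3′, with the DRACH match in capitals and its central A at the candidate methylated position. All but that of Map2k4 hold GGAC, a common core of mammalian m6A sites, and all but that of Map2k6 were nearest to the summit in both replicates. They are a selection with GGACH taken first, so they do not measure how often GGAC occurs. Recurrent sites without GGAC in Map3k1, Map3k2, Map3k4, Map3k5, Map2k3 and Mapk7 are not shown. No site was mapped to a single base in these data, since a summit has the resolution of a fragment.
Map4k1, first exon, chr7:28982857-28982877, plus strand: cgggcccaGGACTtgtgtgga
Map3k1, coding sequence, chr13:111755992-111756012, minus strand: ctggaaaaGGACTaagtgcta
Map3k3, 3′ UTR, chr11:106154338-106154358, plus strand: tgccactgGGACTcaaagcca
Map3k7, 3′ UTR, chr4:32019681-32019701, plus strand: attctctgGGACCgttacgtt
Map3k11, 5′ UTR, chr19:5689836-5689856, plus strand: tcaactggGGACTttctctta
Map3k20, coding sequence, chr2:72441830-72441850, plus strand: agggggctGGACTaaagtgga
Map2k4, 3′ UTR, chr11:65690367-65690387, minus strand: tcatttctAGACTcaaaacct
Map2k6, at the stop codon, chr11:110512852-110512872, plus strand: atacttggGGACTaaaaagcc
Map2k7, 3′ UTR, chr8:4245935-4245955, plus strand: actgccaaGGACTgaggacag
Mapk6, start of the coding sequence, chr9:75398059-75398079, minus strand: aggtacatGGACTtaaaacca
Mapk7, coding sequence, chr11:61490298-61490318, minus strand: ctctggctGGACTggtgctca
Mapk14, 3′ UTR, chr17:28747375-28747395, plus strand: ggaaaacaGGACAgacagaga

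Peaks in both replicates were found in 22 of the 43 genes (51.2%, 95% exact binomial interval 35.5 to 66.7). Over all protein-coding genes the share was 30.9%, below that interval, but the family was picked with earlier results of these data known, so the difference is a description. That share takes in every annotated protein-coding gene without a filter on expression, and the part of expression in the difference was not tested. Each replicate alone placed a peak in 24 genes (55.8%), against 34.4% of all genes in replicate 1 and 33.5% in replicate 2, and 26 genes had one in either, against 37.1%. These intervals cover counting error only, and paralogous kinases are not independent draws.

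The count depended mainly on the height asked of a peak. It was 22 with a −log10 q of at least 3 (30.2% of all genes), 21 with at least 5 (28.9%), 22 with the comprehensive exon set (31.6%), 22 without summits in exons of several genes (29.1%), 21 with 1 transcript per gene (29.8%) and 23 with any overlap of peak and exon (32.6%). With a fold enrichment of at least 4 in both replicates it was 14 (16.9%). Of the 43 genes, 7 had 2 or more summits in each replicate, namely Map3k1, Map3k4, Map3k10, Map3k11, Map2k3, Mapk7 and Mapk14, beside 10.9% of all genes.

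The MAP2K tier had the highest share, with 5 of 7 genes (71.4%, 29.0 to 96.3). The MAP3K tier followed with 10 of 18 (55.6%, 30.8 to 78.5), then the MAP4K tier with 2 of 5 (40.0%, 5.27 to 85.3) and the MAP kinases themselves with 5 of 13 (38.5%, 13.9 to 68.4). The intervals of all tiers overlapped, so no order of the tiers can be read from these counts. Each also included the 30.9% of all protein-coding genes, so no single tier stood apart from that share. A further 4 genes had a peak in 1 replicate only, Map3k9 and Map3k13 in replicate 1 and Map3k6 and Map2k1 in replicate 2. The other 17 had none.

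**Figure D1:**
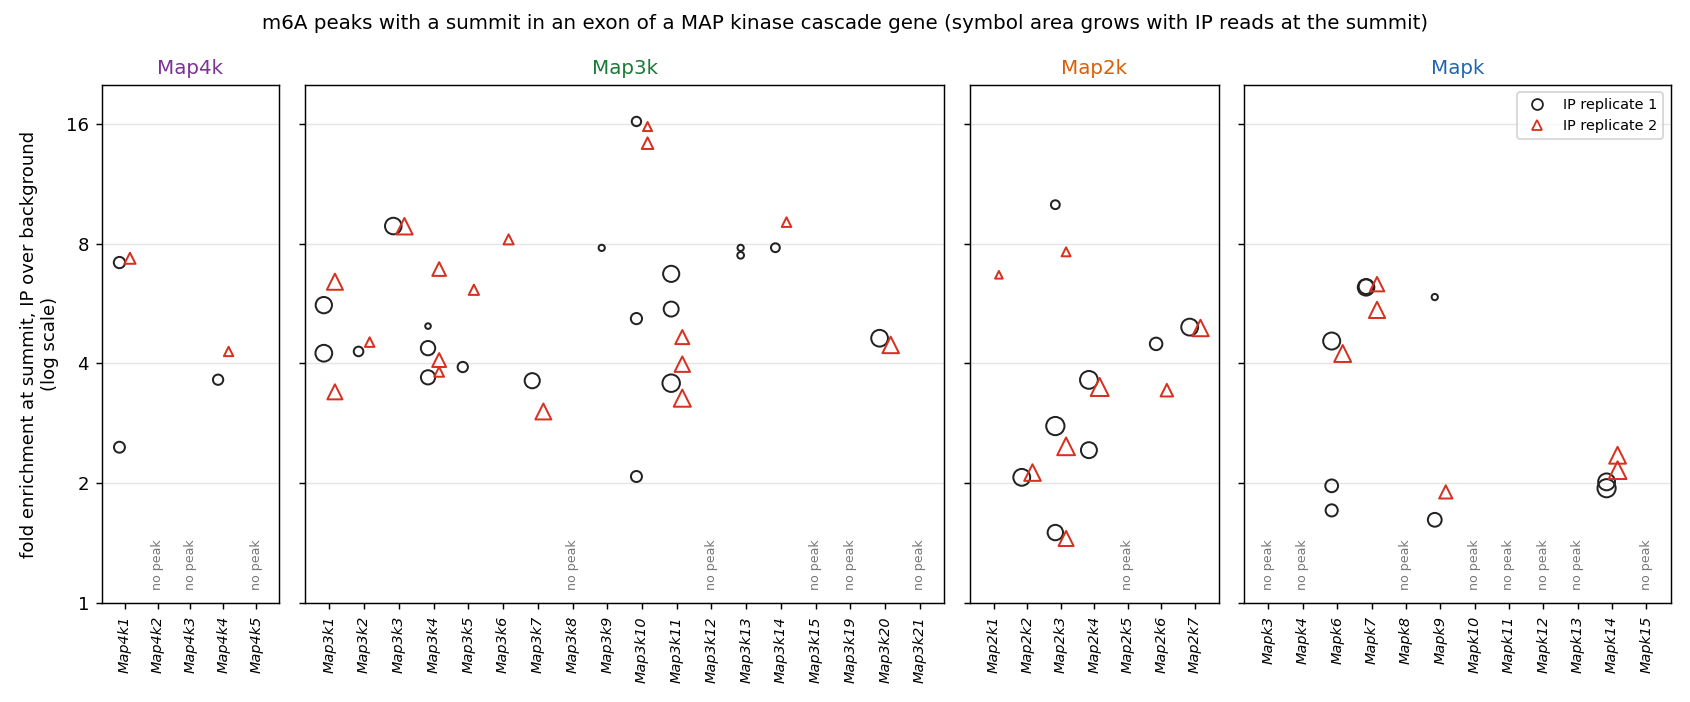
Fold enrichment (log scale) of peaks with a summit in an exon of 42 MAP kinase cascade genes, by tier, for IP replicate 1 (circles) and IP replicate 2 (triangles), with symbol area growing with the IP reads at the summit. Folds ran from 1.46 to 16.2, and 17 genes had no peak. The highest folds were in Map3k10, at its last-exon peak, whose summit also lay in an exon of Ttc9b.

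Read by branch, some kinase groups carried peaks in only part of their paralogs and others in all of them. In the classical ERK branch, Mapk3 (ERK1) carried no peak, and of the activating kinases Map2k2 (MEK2) carried one in both replicates and Map2k1 (MEK1) in replicate 2. Among the p38 kinases, Mapk14 (p38α) carried peaks and Mapk11, Mapk12 and Mapk13 did not. Both dedicated p38 activators, Map2k3 and Map2k6, had peaks. Among the JNK kinases only Mapk9 (JNK2) carried a peak, with none in Mapk8 (JNK1) or in Mapk10 (JNK3, chiefly neuronal), while both JNK activators, Map2k4 and Map2k7, were marked. Mapk7 (ERK5) had peaks and its activator Map2k5 (MEK5) had none. Of the atypical kinases, Mapk6 (ERK3) was marked and Mapk4 and Mapk15 were not. This grouping was made after the values were seen.

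In the upper tiers, the genes without a peak were Map4k2, Map4k3 and Map4k5, and Map3k8 (TPL2), Map3k12 (DLK), Map3k15 (ASK3), Map3k19 and Map3k21 (MLK4). The chosen transcripts of all 17 genes without a peak, those with the longest coding sequence of each gene, had a median spliced length of 4231 nt, against 3796.5 nt for the 22 genes with peaks. They held a median of 16 GGACH sequences, against 14.5. Over all protein-coding genes the order was the other way round, with 2136 nt and 7 sites for genes without a peak and 3340.5 nt and 12 sites for genes with one.

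Transcript length bore on the comparison with all genes, because long transcripts carried peaks more often. Below 2500 nt, 4 of 10 cascade genes had a peak in both replicates, beside 19.4% of all genes of that length. From 2500 to below 4000 nt, 8 of 12 did, beside 38.0%. From 4000 to below 6000 nt, 8 of 17 did, beside 44.5%, and at 6000 nt or more 2 of 4 did, beside 48.3%. The exact intervals of all these shares were wide and included the share of all genes of that length.

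**Figure D2:**
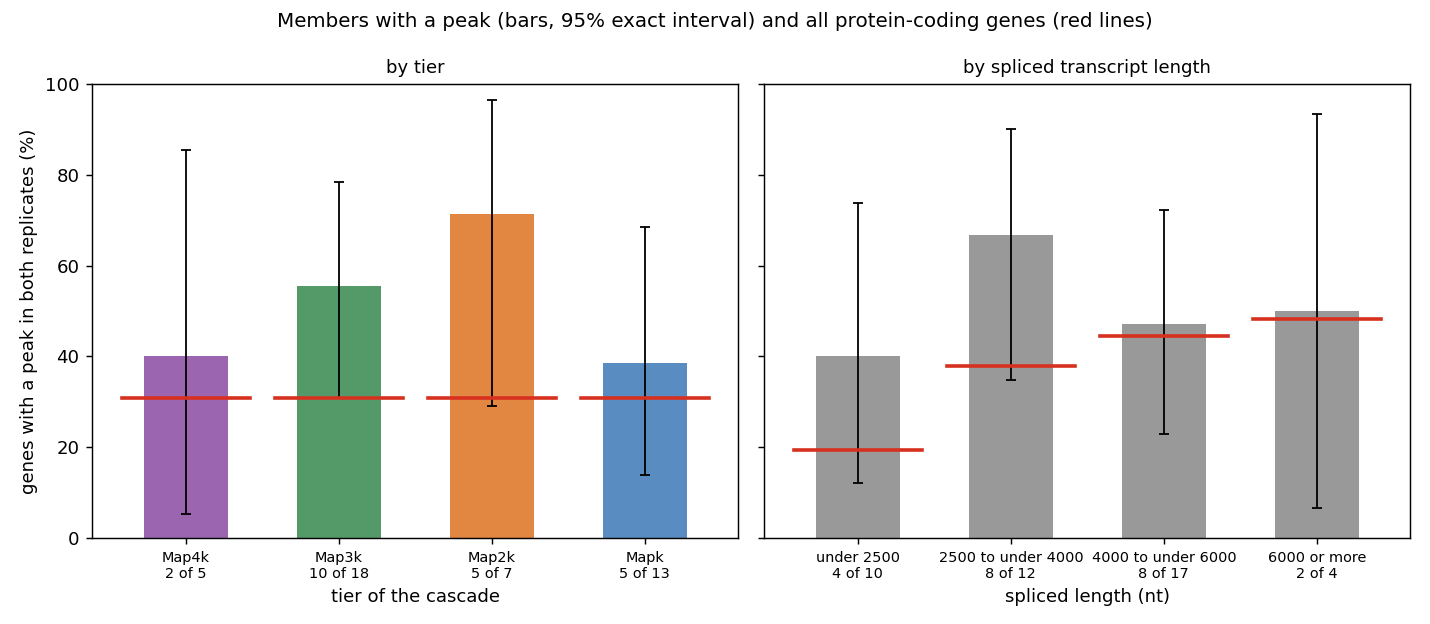
Share of MAP kinase cascade genes with a peak in both IP replicates, by tier (left) and by spliced transcript length (right), in percent, with 95% exact binomial intervals as error bars and the share of all protein-coding genes as red lines. Bars exceed the red line in each tier, by least in Mapk, and in the length classes from 4000 nt upward they lie close to it. The interval of every tier and length class includes the red line.

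Among the MAP4Ks, Map4k1 (HPK1), a kinase largely restricted to blood cells, carried the strongest peak. Its summit lay in the first exon, 50 nt from the transcript start in replicate 1 and 68 nt in replicate 2, at 7.17- and 7.35-fold enrichment of IP over background. The peak rested on 55 and 53 IP reads at the summit, above a local background of 7.8 and 6 reads of the peak caller's control, and had a −log10 q, the caller's corrected significance, of 27.4 and 25.4. The replicates differed little, and both summits had the same GGACT sequence upstream, printed above. A second peak in coding exon 28 of 32 was called in replicate 1 at 2.47-fold, and in replicate 2 an overlapping peak at 3.91-fold had its summit in the neighbouring intron.

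Map4k4 (HGK), a kinase of the stress and TNF responses, had 1 peak in each replicate in its last exon. In replicate 1 the summit lay at the stop codon (3.64-fold, 44 IP reads), and in replicate 2 it lay 316 nt into the 3′ UTR (4.29-fold, 35 IP reads). The 2 peaks overlapped, but their summits were 324 nt apart and pointed to different GGACT sequences.

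Among the MAP3Ks, Map3k3 (MEKK3), which acts above ERK5 and p38, held the most significant peak of the whole cascade. It lay in the 3′ UTR, with summits 179 and 182 nt after the first base of the stop codon, from which distances are counted here. Its enrichment was 8.85-fold in replicate 1 and 8.84-fold in replicate 2, on 130 IP reads over 15.8 control reads and on 129 over 13, with −log10 q of 72.4 and 67.8. The replicates agreed in position within 3 nt, and the GGACT shown above lay 23 and 26 nt upstream of the summits.

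Map3k1 (MEKK1), a JNK pathway kinase that also carries a ubiquitin ligase domain, had 2 peaks in each replicate. The stronger lay in coding exon 14 of 20, a long exon of 1252 nt, at 5.60- and 6.42-fold on 126 and 123 IP reads. The second lay 110 and 123 nt after the stop codon at 4.24- and 3.40-fold on 133 and 106 IP reads. Near that second summit there was no GGAC within 50 nt, and the nearest DRACH match was the same GAACA in both replicates.

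Map3k11 (MLK3), a mixed-lineage kinase of the JNK pathway, had 3 peaks in each replicate, at both ends of its transcript. The first lay in the 5′ UTR at 6.71-fold in replicate 1 and 3.98-fold in replicate 2, on 123 and 112 IP reads, and its summit was also in an exon of the annotated gene AC134563.1. The second lay 106 and 110 nt into the coding sequence, within the same exon, at 5.48- and 4.66-fold. The third lay 173 and 175 nt after the stop codon at 3.57- and 3.27-fold, on 146 and 140 IP reads. Each of the 3 summits had its own GGAC sequence within 50 nt, the same one in both replicates. Only the 5′ UTR peak differed much in height between replicates.

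Map3k10 (MLK2), a paralog of Map3k11, gave the highest fold enrichments of the cascade. The peak in its last exon stood at 16.2- and 15.7-fold, on 35 and 32 IP reads over a background of 1.4 and 1 control reads. The summit also lay in an exon of the neighbouring gene Ttc9b, so the reads cannot be assigned to Map3k10 alone. A peak in coding exon 1 stood at 5.18-fold in replicate 1 and 14.3-fold in replicate 2. The IP reads there were alike, 54 and 59, and the background was 11 against 3 control reads. Another peak, in coding exon 2, was called in replicate 1 only at 2.08-fold.

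The other MAP3Ks with peaks in both replicates had them mostly towards the 3′ end. Map3k20 (ZAK), the sensor of stalled ribosomes, had its summits shortly before the stop codon, at positions -127 and -126, at 4.63- and 4.45-fold on 133 and 130 IP reads, with summits 1 nt apart. Map3k7 (TAK1), which links cytokine and innate receptors to JNK, p38 and NF-κB, had its summits at the stop codon at 3.62- and 3.03-fold on 107 and 120 IP reads. Map3k14 (NIK), the kinase of the non-canonical NF-κB route, had a peak 916 and 970 nt into its 3′ UTR at 7.81- and 9.05-fold, on 30 and 37 IP reads. The highest fold of these genes, in Map3k14, lay on the fewest reads.

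Map3k5 (ASK1), an oxidative stress kinase, carried a peak 246 and 268 nt into the 3′ UTR at 3.92- and 6.12-fold, with 44 IP reads in each replicate. Map3k2 (MEKK2), the closest paralog of Map3k3, had a summit just before the stop codon at 4.29- and 4.53-fold with 37 IP reads in each. Both Map3k2 and Map3k3 were thus marked around the stop codon, but with 37 IP reads at the summit against 129 or more. Map3k4 (MEKK4), a p38 pathway kinase, had a broad peak over coding exon 3 at 4.37- and 6.90-fold, whose summits lay 763 nt apart. It also had a 3′ UTR peak at 3.69- and 4.08-fold with summits 2 nt apart. Its remaining peaks were called in a single replicate, one in the first exon of replicate 1 on 6 IP reads and one in exon 4 of replicate 2 at 3.81-fold.

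The MAP3Ks with a peak in 1 replicate rested on few reads, except Map3k6. Map3k9 (MLK1) had a peak at 7.80-fold on 10 IP reads in replicate 1. Map3k13 (LZK) had 2 peaks in replicate 1, at 7.47-fold on 13 IP reads and at 7.80-fold on 10. Map3k6 (ASK2) had a first-exon peak of 8.19-fold on 42 IP reads in replicate 2. In replicate 1 a peak of 8.96-fold on 33 IP reads (chr4:133240448-133241138) overlapped that peak, but its summit lay 206 nt before the annotated start of the gene. Map3k6 was therefore counted in 1 replicate by the summit rule and in both when any overlap of a peak with an exon was counted.

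**Figure D3:**
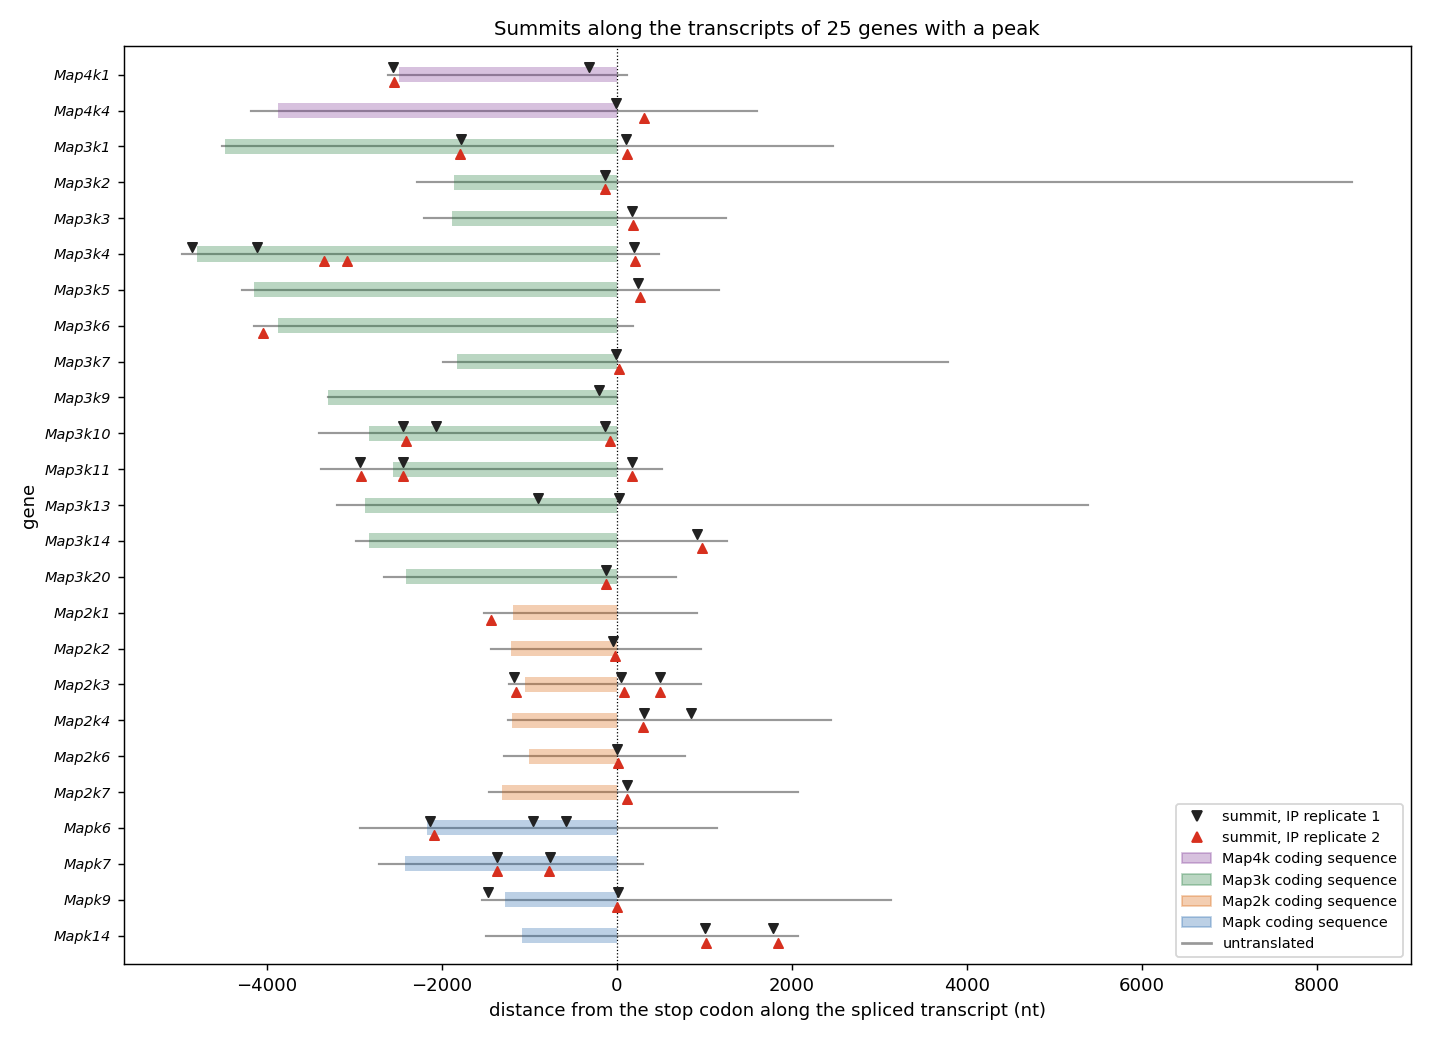
Summits of IP replicate 1 (black, above) and IP replicate 2 (red, below) along the spliced transcripts of 25 genes with a peak, drawn to scale in nt from the stop codon, with coding sequence as bars and untranslated regions as lines. Summits of 12 genes lie within 200 nt of the stop codon in both replicates, Mapk7 is marked only within its coding sequence, and Mapk14 only far into its 3′ UTR.

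Among the MAP2Ks, Map2k7 (MKK7), the dedicated JNK activator, had the most significant peak. It stood at 4.94-fold in replicate 1 and 4.91-fold in replicate 2, on 135 and 129 IP reads, with −log10 q of 45.8 and 40.9 and summits 2 nt apart. The summits lay 119 and 121 nt after the stop codon of an annotated transcript with a long 3′ UTR, 1 and 3 nt from the A of the GGACT printed above. They lay outside the exons of the transcript with the longest coding sequence, whose annotated 3′ UTR has 138 nt.

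Map2k4 (MKK4), which activates both JNK and p38, had its main peak 309 and 306 nt into a long 3′ UTR. It stood at 3.64- and 3.49-fold on 152 and 156 IP reads. A second peak at 2.42-fold, 850 nt into the 3′ UTR, was separate in replicate 1 and was covered in replicate 2 by a single peak of 1209 bp. The nearest DRACH match to the main summits was AGACT in both, with no GGAC within 50 nt.

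Map2k3 (MKK3), a p38 activator, had 3 peaks in each replicate. The first-exon peak, 63 and 75 nt from the transcript start, had the highest fold, 10.01 and 7.62, on 30 and 31 IP reads. The 3′ UTR peak had the highest significance, at 2.79- and 2.48-fold on 160 and 150 IP reads. The peak at the stop codon was the weakest of the cascade, at 1.51- and 1.46-fold, and in replicate 2 its −log10 q of 1.305 was the lowest of the whole peak list. The first-exon peak thus ranked first by fold and the 3′ UTR peak first by significance, and the background beneath them was 2.4 and 3 control reads in the first exon and 65 and 57 in the 3′ UTR.

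Map2k6 (MKK6), the other p38 activator, was marked at its stop codon at 4.48- and 3.43-fold on 70 and 71 IP reads. The summits lay 5 and 20 nt after the first base of the stop codon, and the GGACT printed above runs into the stop codon itself, its A at position -2. In replicate 2 the nearest match was a second GGACT, whose A lay 13 nt after the first base of the stop codon. Map2k2 (MEK2), an ERK activator, had a stop codon peak of 2.07- and 2.13-fold on 135 and 131 IP reads, low in fold over 74 and 58 control reads. Map2k1 (MEK1) had a 5′ UTR peak in replicate 2, at 6.68-fold on 20 IP reads over 2 control reads, with no DRACH within 50 nt of its summit.

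Among the MAP kinases, Mapk7 (ERK5), which has a long carboxy-terminal extension beyond its kinase domain, held the most significant peaks, all in coding sequence. The peak in exon 5 stood at 6.21- and 5.45-fold on 130 and 125 IP reads, with −log10 q of 54.8 and 43.9. The peak in exon 4, an exon of 1079 nt, stood at 6.23- and 6.33-fold on 100 and 96 IP reads, with summits 1 nt apart. Of the 43 genes, Mapk7 was the only one with 2 or more peaks in both replicates that all lay in coding sequence away from the start and stop codons. The exon 4 summits had TGACC as the nearest DRACH match and no GGAC within 50 nt, whereas the exon 5 summits had the GGACT printed above.

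Mapk6 (ERK3), an atypical kinase that is turned over rapidly, was marked at the start of its coding sequence. The summits lay 28 and 72 nt after the start codon's first base at 4.55- and 4.24-fold on 138 and 137 IP reads, on either side of the same GGACT. Replicate 1 also had 2 low coding peaks, at 1.71- and 1.97-fold, that were not called in replicate 2.

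Mapk14 (p38α) had 2 peaks far into its 3′ UTR, the first 1009 and 1015 nt after the stop codon at 1.95- and 2.16-fold. The other lay 1790 and 1838 nt after it at 2.02- and 2.35-fold. Both had low folds on many reads, with 159 and 151 IP reads over 93 and 66 control reads at the first. Mapk9 (JNK2) had a stop codon peak of 1.62- and 1.90-fold on 87 and 79 IP reads, and in replicate 1 a first-exon peak of 5.87-fold on 10 IP reads.

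**Figure D4:**
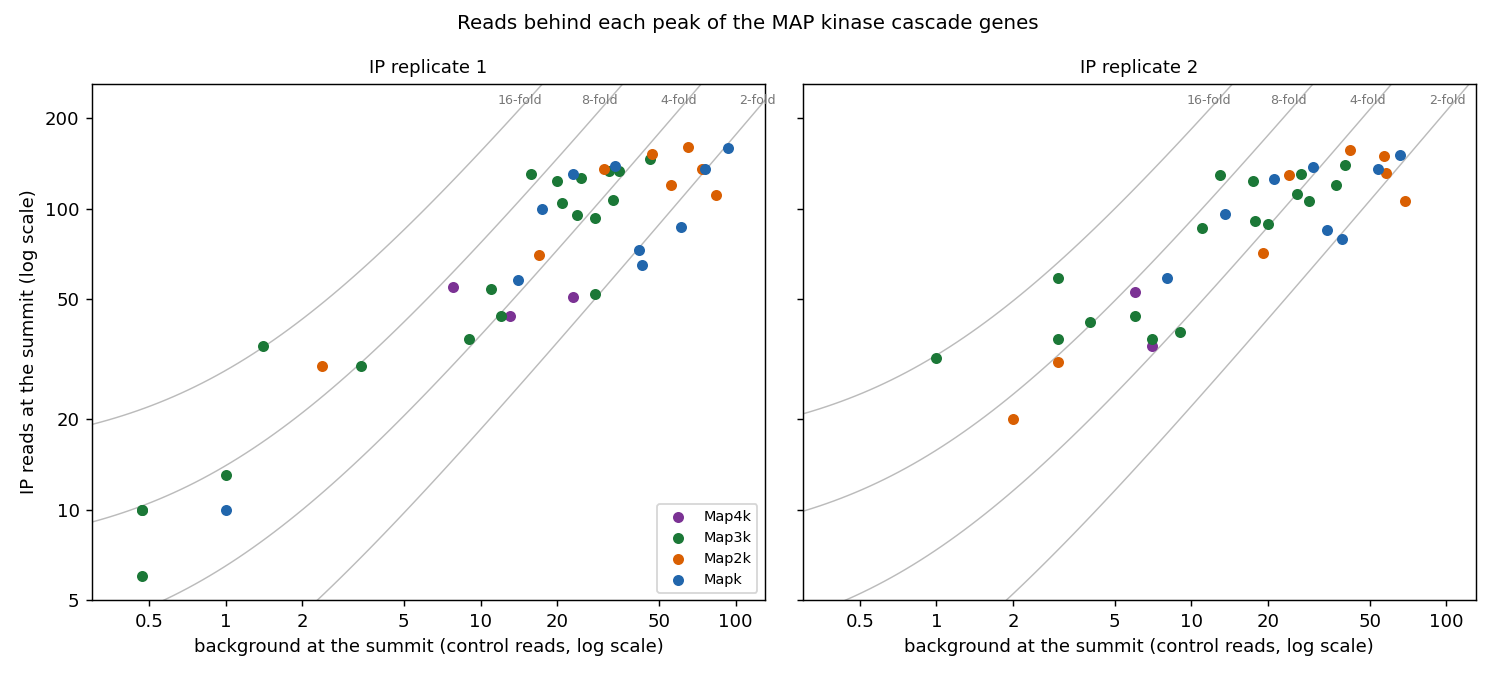
IP reads at the summit against the background at the summit in control reads (both axes log), 1 point per peak of a MAP kinase cascade gene, for IP replicates 1 and 2, with grey lines of equal fold enrichment. All peaks on a background of 50 or more control reads are of Map2k or Mapk genes, and the points below 20 IP reads are all in replicate 1.

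Across the cascade the peaks were of ordinary strength for this dataset. The median fold enrichment of the members' peaks was 4.46 in replicate 1 and 4.45 in replicate 2, beside 4.11 and 4.29 over all peaks in protein-coding exons. The median number of IP reads at the summit was 93 and 91, beside 71 and 69, and the median background was 23 and 19 control reads, beside 18.4 and 14. The medians thus lay on somewhat more reads than those of all exonic peaks. On a background below 2 control reads, where a fold rests on few reads, lay 6 of the 41 peaks of replicate 1 and 1 of the 35 of replicate 2.

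In position, 34.1% of the members' summits in replicate 1 and 37.1% in replicate 2 lay within 200 nt of the stop codon, beside 29.9% and 28.9% of all exonic summits. The intervals, 20.1 to 50.6 and 21.5 to 55.1, include those backgrounds. Coding sequence away from the start and stop codons held 26.8% and 17.1%, beside 31.7% and 31.6%, and the 3′ UTR held 19.5% and 22.9%, beside 18.8% and 19.2%. Summits within 200 nt of a transcript start, as in Map4k1 and Map2k3, made up 12.2% and 14.3%, beside 11.9% and 12.2%. Exons of at least 400 nt held 80.5% and 85.7%, beside 85.9% and 86.0%. By position the cascade genes could not be told from other methylated transcripts at this number of peaks.

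In sequence, GGAC lay within 50 nt of 73.2% of the members' summits in replicate 1 (57.1 to 85.8) and 77.1% in replicate 2 (59.9 to 89.6), beside 55.3% of all exonic summits in each. Within 25 nt the shares were 43.9% and 28.6%, beside 33.8% and 34.6%, so the order was not kept in replicate 2. Within 100 nt they were 85.4% and 88.6%, beside 75.5% in each. DRACH, which is frequent by its loose definition, lay within 50 nt of 95.1% and 94.3%, beside 92.9% in each. These matches, searched on the transcript's strand only, are a description of the sequence and not of methylated sites. In the 2 replicates together, 49 distinct nearest sites were found within 50 nt of a summit, 20 of them in both, and of those 20 the most frequent form was GGACT with 8. These site counts leave out chromosome 18, which holds Map3k2.

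Peaks recurred between replicates. In replicate 1, 33 of 41 peaks (80.5%) overlapped a peak of the other replicate, and in replicate 2, 32 of 35 (91.4%), beside 85.2% and 87.3% of all exonic peaks. For the 30 peaks that matched one to one, the SD of the log2 ratio of folds was 0.40, beside 0.45 over 9163 such pairs in all protein-coding genes. Of the 30 pairs, 29 were within 2-fold of each other, and the exception was coding exon 1 of Map3k10. The median distance between paired summits was 15 nt. The 8 peaks of replicate 1 with no overlap in the other list had 6 to 13 IP reads (Map3k4, Map3k9, Map3k13, Mapk9) or a fold of 2.08 or less (Map3k10, Mapk6). Replicate 2 had 3 such peaks, among them those of Map3k4 in exon 4 and of Map2k1.

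**Figure D5:**
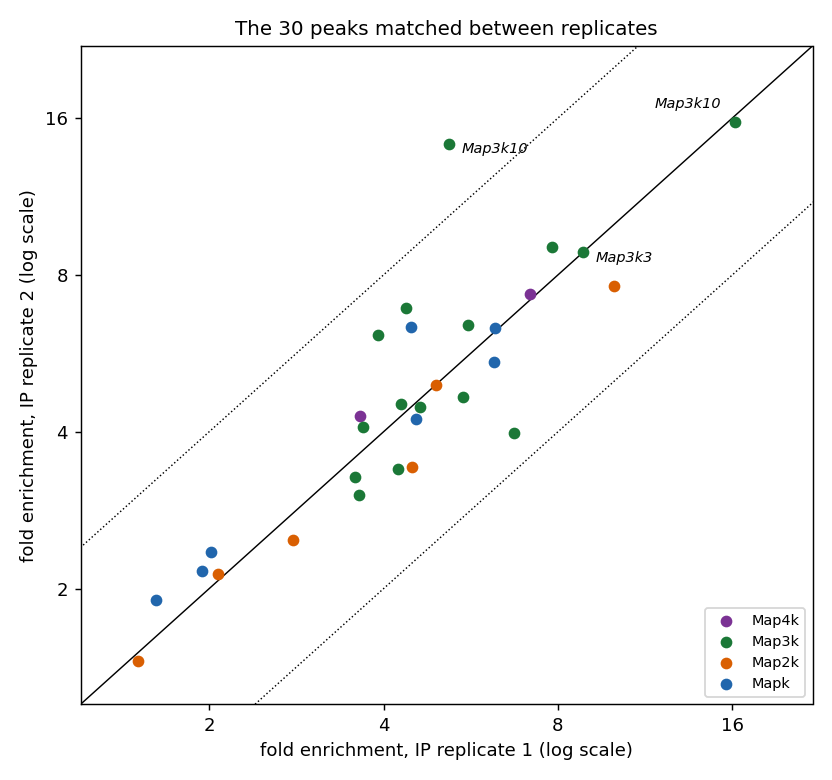
Fold enrichment in IP replicate 1 against IP replicate 2 (both axes log) for the 30 peaks of MAP kinase cascade genes matched between replicates, coloured by tier, with the line of equality and dotted lines at 2-fold. All but 1 point, the coding exon 1 peak of Map3k10, lie within the dotted lines, and Map3k3 lies on the line of equality.

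The wider pathway was surveyed with lists of the genes that feed, hold together or restrain the cascades. Of 67 such genes, 40 carried a peak in both replicates (59.7%, 47.0 to 71.5), beside 30.9% of all protein-coding genes. The lists were drawn up with earlier results of these data known, so their counts are no independent support.

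The lists of negative regulators had the highest shares, beside 30.9% of all protein-coding genes, although the intervals of all lists overlapped. The part of transcript length and of expression in these shares was not tested. Of 10 dual-specificity phosphatases, which remove phosphates from MAP kinases, 8 carried a peak in both replicates (80%, 44.4 to 97.5). Dusp4 carried one in replicate 1, and only Dusp9 had none. The fold given for these genes is that of the most significant peak of each replicate, which need not be the same peak. Dusp7, an ERK phosphatase, stood at 5.26-fold in the 3′ UTR and 5.83-fold at the stop codon, Dusp5, a nuclear ERK phosphatase, at 12.6- and 11.8-fold, and Dusp16, a JNK and p38 phosphatase, at 8.80- and 5.65-fold. Of 10 Ras brakes, 7 carried a peak in both (70%, 34.8 to 93.3), Rasa3 and Nf1 in replicate 2, and Rasa2 in neither. Spry1, a Sprouty inhibitor of receptor signalling, stood at 15.97- and 11.2-fold, Spry2 at 11.2- and 7.21-fold, and Spred2, which recruits neurofibromin, at 5.89- and 5.43-fold. Both folds of Spry1 and of Dusp5 exceeded those of every cascade peak outside Map3k10.

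Of 15 genes of the Ras and Raf entry, 8 carried a peak in both replicates (53.3%, 26.6 to 78.7). The interval included the 30.9% of all protein-coding genes. By mean −log10 q, the 3 highest were the exchange factors Sos2 (4.41- and 5.64-fold) and Sos1 (3.76- and 5.89-fold) and the GTPase Hras (2.89- and 2.42-fold). Rras2 had a peak in replicate 2 only, and Nras, Rras, Mras, Braf, Ksr2 and Mos had none. As among the kinases, paralogs differed, with peaks in Araf but not Braf and in Hras but not Nras.

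Of 11 scaffolds and adaptors, 5 carried a peak in both (45.5%, 16.7 to 76.6), an interval that included the 30.9% of all protein-coding genes. Traf6, a ubiquitin ligase of the interleukin-1 and Toll-like receptor routes, stood at 5.37- and 5.35-fold, the TAK1-binding proteins Tab1 at 4.50- and 4.05-fold and Tab2 at 3.03- and 3.44-fold. The JNK scaffolds Mapk8ip1, Mapk8ip2 and Mapk8ip3, with Lamtor3 and Pea15a, had none, and Spag9 had one in replicate 2. Of the TAK1 module, the kinase Map3k7 and Tab1, Tab2 and Tab3 thus each carried a peak in both replicates. The strongest peak of Tab3 stood at 2.46- and 3.29-fold on 53 and 48 IP reads, and Map3k7 was lost at a minimum fold of 4. The module was not one of the lists, so this is a description of these genes only.

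Of 10 other Ste20 kinases, relatives of the MAP4Ks, 6 carried a peak in both (60%, 26.2 to 87.8), beside 30.9% of all protein-coding genes. Pak2 stood at 4.23- and 4.25-fold, Taok2 at 4.03- and 4.43-fold, and Taok3 at 4.43- and 2.04-fold with its strongest peak in a different region in each replicate, while Mink1, Pak1 and Pak3 had none and Tnik one in replicate 2. Of 11 MAPK-activated kinases, which MAP kinases phosphorylate, 6 carried a peak in both (54.5%, 23.4 to 83.3). The intervals of both lists included the share of all genes. Rps6ka5 (MSK1) stood at 6.88- and 6.77-fold, Rps6ka3 (RSK2) at 4.11- and 3.29-fold and Rps6ka1 (RSK1) at 2.61-fold at the stop codon and 2.52-fold in the 3′ UTR. Mapkapk2, Mapkapk5 and Rps6ka6 had no peak, Mknk2 had one in replicate 1 and Rps6ka2 one in replicate 2.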

How the data were processed

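The authors aligned meRIP-seq reads to GRCm38 (mm10) with HISAT2 and called peaks per replicate with MACS2 2.1.1.20160309 (nomodel flag). The deposited peak lists hold a fold enrichment (the ratio of IP pileup to local background, each with 1 read added, after scaling the control by 0.874 in replicate 1 and the IP by 0.952 in replicate 2, which lowers folds over few reads), a −log10 p and a −log10 q, a score made from the q-value, and the summit offset. Library depths were not analysed here. Peaks were placed by summit in exons of the GENCODE M21 basic set. Positions refer to the transcript with the longest coding sequence, or to another with the summit in an exon. Sequences came from the RefSeq copy of GRCm38. IP and control reads at summits were computed from the deposited fold and p-value under MACS2's formulas, and 100% of peaks matched whole reads within 0.001 in −log10 p. The scripts (Python 3.11.15, NumPy 2.4.6, SciPy 1.17.1) were tested on simulated data. Two-replicate peak lists of 1 group allow no test, so shares carry 95% Clopper-Pearson intervals. Start and stop codon classes reach 200 nt either way.

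Members and lists were chosen with earlier results of these data known. Results that name certain genes are not reported here, although these genes enter the counts. Those described peak by peak were the 4 per tier with the highest mean −log10 q and those with a peak in 1 replicate, the rest being given more briefly. From each pathway list the 3 with the highest mean −log10 q and those without a peak are given. Spry3 was not in the annotation. Alternatives covered the overlap rule, minimum fold and q, exon set, shared exons, windows and single replicates.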

Additional observations from a re-analysis of the deposited data

Results flagged for a closer look

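Map3k11 also carried a peak whose summit lay within the gene but outside its exons and those of any other annotated gene. It was called in both replicates, at 3.93-fold on 36 IP reads in replicate 1 and at 4.22-fold on 35 IP reads in replicate 2 (summits chr19:5693662 and chr19:5693656). The exon-based counts above leave it out.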

How the results depend on the processing

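Of the 22 genes with a peak in both replicates, Mapk9 was lost at a minimum −log10 q of 5 and Map2k7 with 1 transcript per gene, and Map3k6 was gained when any overlap counted. A minimum fold of 4 left 14 genes, and with it the share of all protein-coding genes fell from 30.9% to 16.9%. By tier this minimum left 1 Map4k, 8 Map3k, 2 Map2k and 3 Mapk genes. Of the pathway lists, 2 each of the Ras and Raf entry, scaffold and Ste20 lists and 1 MAPK-activated kinase were left. So were 6 dual-specificity phosphatases and 6 Ras brakes. The genes lost were Map4k4, Map3k5, Map3k7, Map2k2, Map2k4, Map2k6, Mapk9 and Mapk14. Averaged over replicates, the share of peaks recurring was 76.8% for summits within 100 bp and 73.8% for folds of 4 in both lists. The stop codon share was 17.1% within 100 nt, 47.5% within 400 nt and 28.6% at a fold of 4. The GGAC share was 36.2% within 25 nt and 87.0% within 100 nt, and 97.6% of summits lay in exons of at least 200 nt and 65.8% in exons of at least 1000 nt. Wider windows and lower exon lengths raise a share by construction, and for the changes at a fold of 4 or by summit distance the cause was not tested. A single replicate gave 24 genes either way. No paired analysis was possible because no file of the input libraries was used here and no result comes from a test between groups. Folds over few control reads, as in Map3k10, and peaks of 6 to 13 IP reads are the least certain values.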
